A study of Mus musculus with 4 samples.

Results

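The genes described here are 10 imprinted genes known for roles in the hypothalamus: Peg3, Ndn, Magel2, Nnat, Grb10, Gnas, Dlk1, Plagl1, Asb4 and Snrpn. They were chosen by symbol, and each matched 1 of the 32285 gene identifiers in the files. Their levels were read in nuclear RNA of whole hypothalamus, frozen, from mice of about 18 months, in the 2 samples labelled Control. Strain and sex were not given in the sources used here, and the title of Control replicate 1 joins 2 animal codes without saying whether animals were pooled. The study set these samples against hypothalamus of mice that had received grafts of hypothalamus stem cells made from human pluripotent cells. That contrast could not be made, because the Transplanted label was carried by further copies of these nuclei: 99.7% of each Control sample's barcodes recurred in 1 Transplanted sample. Summed UMIs (unique molecular identifiers, 1 per captured transcript) of the members differed between the 2 deposits of a library by a ratio of 0.939 to 1.07. There were therefore 2 distinct libraries, called Control replicate 1 (4008 nuclei, median 1813 UMIs) and Control replicate 2 (2150 nuclei, median 2049 UMIs), which shared 4 barcodes. P-values measure only how differences between groups of nuclei varied between these 2 libraries, beyond a shift common to a whole library. That variation may be technical.

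An imprinted gene is transcribed mainly from the copy inherited from the mother or mainly from the copy inherited from the father, through DNA methylation laid down in the germ line. Many imprinted genes are active in the hypothalamus and take part in feeding, growth, body temperature and maternal behaviour. Ndn, Magel2 and Snrpn lie in the region whose loss of paternal expression underlies Prader-Willi syndrome, a disorder of hypothalamic function. A 3' single-nucleus assay counts both parental copies together, so allele-specific expression was not measured here.

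Nuclei were grouped without using the members or other imprinted genes. The resulting classes were named from marker genes and are neuron-like, astrocyte-like, oligodendrocyte-like, oligodendrocyte-precursor-like, tanycyte-like and microglia-like nuclei, written below without the ending. Tanycytes are the cells that line the floor of the third ventricle. Of the class markers, 10 of 12 for neurons, 14 of 15 for astrocytes, 15 of 15 for oligodendrocytes, 13 of 14 for precursors, 12 of 15 for tanycytes and 13 of 13 for microglia were highest in their own class in both libraries. Neurons made up 3021 and 1449 nuclei, with median depths of 2267 and 2632 UMIs. The smallest class, microglia, had 55 and 46 nuclei, and median depth in the glial classes lay between 623 and 1196 UMIs. Levels are given as CPM, the UMIs of a gene scaled to a total of 1000000 UMIs in the class or cluster. Shares of nuclei are given after thinning each nucleus to 500 UMIs, since the classes differed in depth.

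Promoters are shown for the 4 members whose distribution over cells the results turn on: Peg3, found in every class; Magel2, nearly restricted to neurons; and Nnat and Dlk1, which were both high in tanycytes and in the same neuron cluster. Each line holds the 250 bases before a RefSeq transcription start on build GRCm38.p6, 5′ to 3′ on the strand of the gene, with CG dinucleotides, the sites that methylation acts on, in capitals.
Peg3, chr7:6730420-6730669, minus strand: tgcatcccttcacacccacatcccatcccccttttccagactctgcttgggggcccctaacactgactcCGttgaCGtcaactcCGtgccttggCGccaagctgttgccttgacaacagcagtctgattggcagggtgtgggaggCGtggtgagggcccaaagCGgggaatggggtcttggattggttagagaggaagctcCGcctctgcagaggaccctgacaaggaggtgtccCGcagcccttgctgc
Magel2, chr7:62376729-62376978, plus strand: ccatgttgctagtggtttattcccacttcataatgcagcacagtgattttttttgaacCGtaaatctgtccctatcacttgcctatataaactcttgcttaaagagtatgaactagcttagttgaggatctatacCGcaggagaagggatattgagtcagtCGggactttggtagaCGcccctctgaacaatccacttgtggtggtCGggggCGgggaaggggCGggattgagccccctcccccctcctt
Nnat, chr2:157559828-157560077, plus strand: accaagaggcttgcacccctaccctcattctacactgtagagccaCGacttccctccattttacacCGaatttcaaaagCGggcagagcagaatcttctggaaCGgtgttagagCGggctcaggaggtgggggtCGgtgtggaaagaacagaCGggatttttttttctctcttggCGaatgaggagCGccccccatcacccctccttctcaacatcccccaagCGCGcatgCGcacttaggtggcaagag
Dlk1, chr12:109452573-109452822, plus strand: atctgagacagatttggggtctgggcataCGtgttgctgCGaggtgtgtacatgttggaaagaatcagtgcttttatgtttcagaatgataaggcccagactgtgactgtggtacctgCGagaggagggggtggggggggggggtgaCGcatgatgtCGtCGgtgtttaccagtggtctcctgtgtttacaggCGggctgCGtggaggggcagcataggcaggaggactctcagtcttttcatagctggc

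Nnat had 12 CG sites in this window, Peg3 and Dlk1 8 each and Magel2 7, against a median of 6 over 32851 promoters. The letters TGACGTCA occurred in the Peg3 window and in 1.55% of all promoters of this length, searched on both strands. TATAAA occurred in the Magel2 window and in 12.4% of all promoters. These matches describe letters only. The 10 members had 18 promoters in the table, and the most CG-rich was a Grb10 promoter with 40 sites.

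In the GENCODE annotation of GRCm38, Nnat is a short gene that lies opposite Blcap, and Ndn and Magel2 each lie opposite Gm32061. Gnas lies opposite Nespas and Gm20721, and Snrpn shares its strand with Snurf and Gm38393. The sources used here do not say whether counting used strand, and reads of these overlapping genes cannot be told apart.

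By mean level, 6 of the 10 members were highest in neurons (Peg3, Ndn, Magel2, Grb10, Gnas and Snrpn) and 4 in tanycytes (Nnat, Dlk1, Plagl1 and Asb4). Peg3, Grb10, Gnas, Dlk1 and Snrpn were higher in neurons than in the average of the 5 glial classes, and Nnat was lower, while Ndn, Magel2, Plagl1 and Asb4 had too few UMIs for this test. The 5 that were higher compare with 34.8% of 6219 genes called higher, and the 1 that was lower with 14.1% called lower (edgeR's quasi-likelihood test, Benjamini-Hochberg adjusted p of 0.05 or less). Over the 6 members tested, the median log2 difference was 3.02, or 2.36 with Dlk1, which had no UMI in microglia, set there to the level of 3 counts. The median over all genes tested was 0.26. The filter keeps a gene by its level in any 2 of the class totals, which the neurons of the 2 libraries alone can meet. These counts and medians therefore hold only for the members that passed. Among the 4 left out, the mean neuron level over the mean glial level was 44.3 for Magel2, 3.54 for Asb4, 3.44 for Ndn and 1.08 for Plagl1. Against each glial class in turn, a comparison added after the levels had been seen, 26 of 30 member and class pairs were higher in neurons and 3 were lower. Over all genes these shares were 24% and 19.2% of 31095 pairs.

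**Figure D1:**
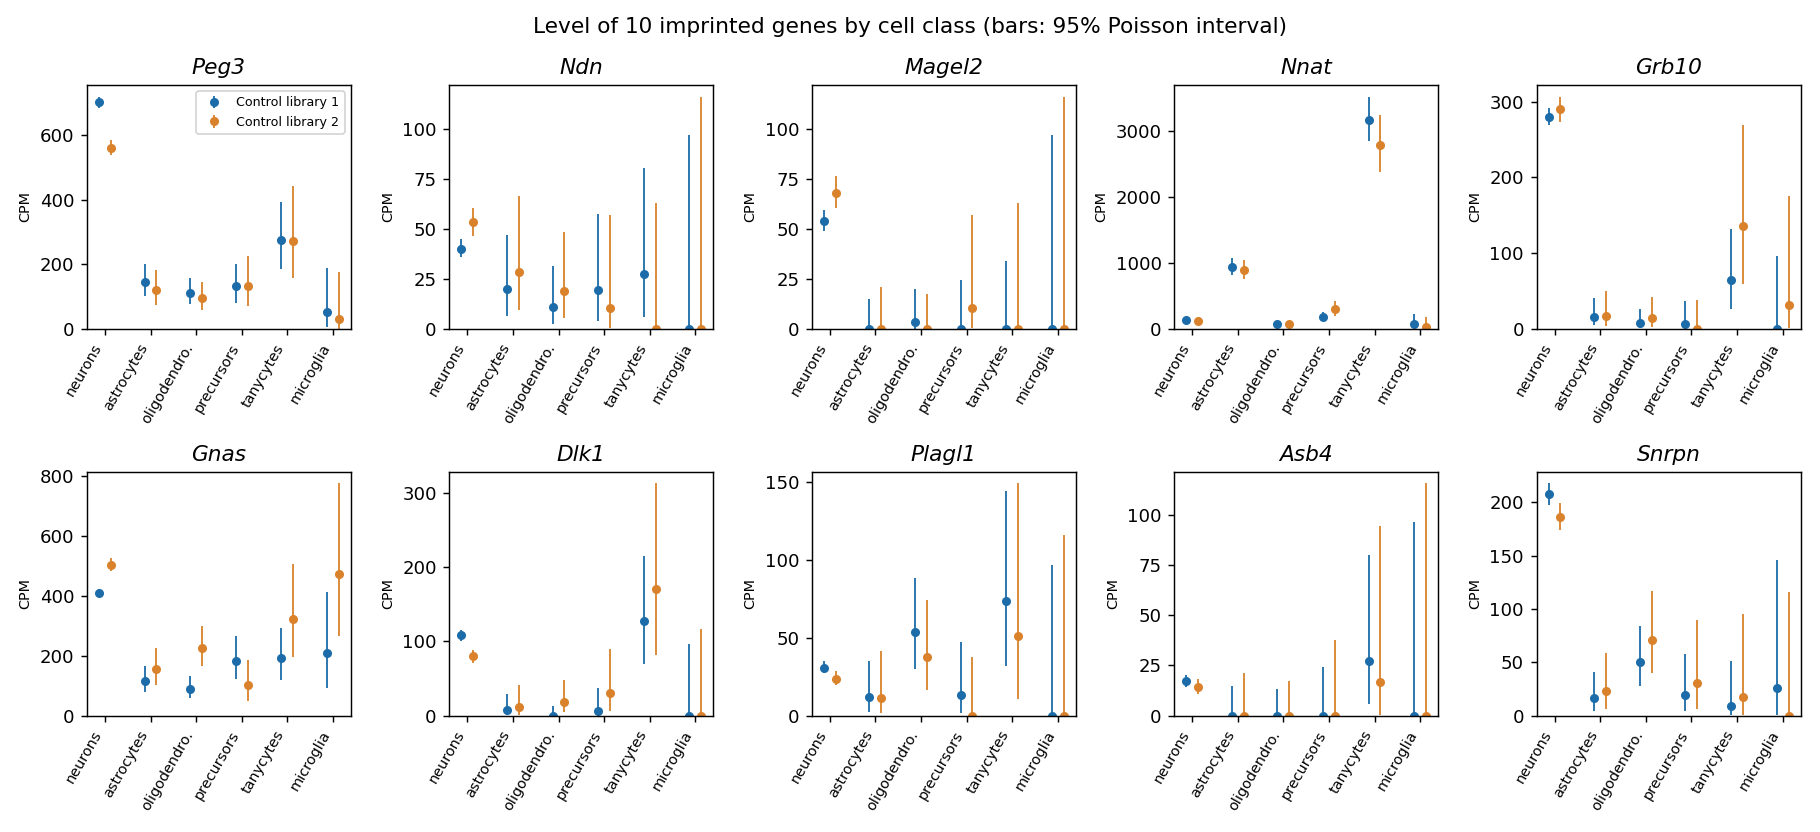
Level of each of the 10 genes (vertical axis, CPM, each panel on its own scale) in 6 cell classes (horizontal axis) for Control library 1 (blue) and 2 (orange), which are replicates 1 and 2; bars are 95% Poisson intervals, which cover counting error only. Neurons are highest for Peg3, Magel2, Grb10 and Snrpn, and tanycytes for Nnat, at 3164 and 2777.

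Peg3, a zinc-finger transcription factor expressed from the paternal copy, was read in every class. Its level in neurons was 701 CPM in replicate 1 and 559.6 in replicate 2 (mean 630.1 ± 99.7 SD, n = 2). Tanycytes came next at 274 and 273 CPM, then astrocytes at 144 and 119, precursors at 131 and 132, and oligodendrocytes at 111 and 94.4. Neuron and glial values did not overlap, and the order of astrocytes, precursors and oligodendrocytes was within their counting intervals. The log2 difference of neurons from the average of glia was 2.65 ± 0.15 (SE). Among glia, Peg3 was higher in tanycytes, by 1.39 on the log2 scale, than in the average of the other classes, and lower in microglia, which held 3 UMIs. After thinning, 27.3% and 24.0% of neurons held a Peg3 UMI, against 12.3% and 17.9% of tanycytes and 5.59% and 6.0% of astrocytes.

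Grb10 encodes an adaptor protein that restrains insulin and growth-factor signalling, and in neurons it is known to be read from the paternal copy. Neurons held 280.5 and 290.5 CPM, the smallest log2 difference between the libraries of any member (0.05). Tanycytes held 64.0 and 136 CPM, and the other glial classes held 0 to 31.5 CPM. The log2 difference from the average of glia was 4.39 ± 0.24 (SE), and against tanycytes alone it was 1.96 ± 0.34. Precursors held 1 Grb10 UMI in all, so that the neuron level was 71.3 times theirs with a counting interval of 12.8 to 2815.

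Snrpn, a component of the spliceosome expressed from the paternal copy, also had a steep neuronal excess. Neurons held 208 and 186 CPM and the glial classes 0 to 70.8 CPM, without overlap. Its log2 difference from the average of glia was 3.40 ± 0.25. Within glia, Snrpn was higher in oligodendrocytes (50.1 and 70.8 CPM) than in the average of the other glial classes, by 2.11 on the log2 scale. Without replicate 1 the value was 3.53, which depends on the fit, since microglia of replicate 2 held no Snrpn UMI. Snurf shares these reads' strand, and the 2 genes cannot be told apart where they overlap.

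Gnas encodes the stimulatory G protein alpha subunit, which couples hormone receptors to cyclic AMP and is imprinted in some tissues only. The gene has RefSeq transcription starts at several places along its 62425 bases, and its counts are summed over all its transcripts. Which of these transcripts the UMIs came from was not tested. The Gnas level in neurons was 409 and 504 CPM. Microglia held 209.8 and 472 CPM, from 8 and 15 UMIs, so the ranges of neurons and glia overlapped. Even so, neurons were higher than each of the 5 glial classes within the fit, by 1.18 (microglia and tanycytes) to 1.76 (astrocytes) on the log2 scale. This was the shallowest neuronal excess among the 5 members called higher.

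Ndn and Magel2 encode related MAGE-family proteins. Magel2 had 715 UMIs in neurons, at 54.0 and 68.0 CPM, and 2 UMIs in all glia: 1 in an oligodendrocyte and 1 in a precursor. Astrocytes, tanycytes and microglia held none. Against the level that 3 counts would give, neurons were at least 8.34-fold higher than astrocytes and at least 3.3-fold higher than tanycytes, and in microglia the depth allowed only a bound of 1.37. Ndn was less restricted: neurons held 46.5 ± 9.27 CPM (SD, n = 2), and astrocytes held 24.2 CPM on average from 5 UMIs in each library. Without the filter on low counts, the Ndn difference from astrocytes was 1.18 ± 0.47 on the log2 scale, with an edgeR adjusted p of 0.0767.

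Plagl1, a zinc-finger regulator of growth, and Asb4, part of a ubiquitin ligase and known from arcuate neurons, were the least abundant members. Plagl1 stood at 30.8 and 23.7 CPM in neurons, 73.2 and 51.1 CPM in tanycytes and 53.7 and 37.8 CPM in oligodendrocytes, so it was not a neuronal gene by level. In the fit without the filter, Plagl1 in neurons did not differ from tanycytes (-0.57 ± 0.54) or oligodendrocytes (-0.62 ± 0.40) at the threshold. Asb4 had 197 UMIs in neurons, at 17.3 and 14.2 CPM. Outside neurons it was read only in tanycytes, at 27.4 and 17.0 CPM, from 3 UMIs in replicate 1 and 1 in replicate 2.

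Nnat went the other way. Nnat encodes neuronatin, a small membrane protein of the endoplasmic reticulum linked to calcium handling and metabolism. Tanycytes held 3164 and 2777 CPM, astrocytes 937 and 893, and precursors 177 and 295. Neurons held 127 and 119 CPM, oligodendrocytes 68.0 and 70.8, and microglia 78.7 and 31.5 from 4 UMIs in all. Tanycytes, astrocytes and neurons were thus separate in both libraries, in that order. Neurons were lower than tanycytes by a log2 difference of -4.30 ± 0.15 and lower than astrocytes by -2.89 ± 0.15. They were also lower than precursors by -0.87, a value that was -1.33 without replicate 1 and -0.47 without replicate 2, and higher than oligodendrocytes by 0.80 ± 0.28 (edgeR adjusted p = 0.0114). Because the classes differ in direction, the difference from the average of glia was only -1.09, and its call was lost after thinning (-0.76) and at a finer clustering (-0.31), in which 47 nuclei kept the tanycyte name. After thinning, 69.3% and 58.9% of tanycytes and 29.9% and 35.0% of astrocytes held an Nnat UMI, against 5.63% and 6.07% of neurons.

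Blcap, the gene opposite Nnat, followed the same classes at lower counts. It stood at 389 ± 19.5 CPM (SD, n = 2) in tanycytes, 167 ± 91.8 in astrocytes and 40.2 ± 6.86 in neurons. Whether Blcap reads contain Nnat transcripts, or the reverse, was not tested.

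Dlk1, a membrane protein related to Notch ligands that restrains adipocyte differentiation, was shared by neurons and tanycytes. Neurons held 108 and 79.6 CPM and tanycytes 128 and 170.4 CPM, and their difference was -0.28 ± 0.35 on the log2 scale (edgeR adjusted p = 0.569). Astrocytes, oligodendrocytes and precursors held 0 to 30.5 CPM, and microglia held no UMI. Neurons were higher than astrocytes by 3.33 ± 0.52, than precursors by 2.56 (1.36 without replicate 1, 4.03 without replicate 2), and at least 2.28-fold higher than microglia. The difference from the average of glia was 3.77 as fitted and 2.06 with microglia at the level of 3 counts. It was 2.88 without replicate 1 and 5.70 without replicate 2. Oligodendrocytes of replicate 1 held no Dlk1 UMI, so the 5.70 rests on a further class without counts and depends on the fit.

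**Figure D2:**
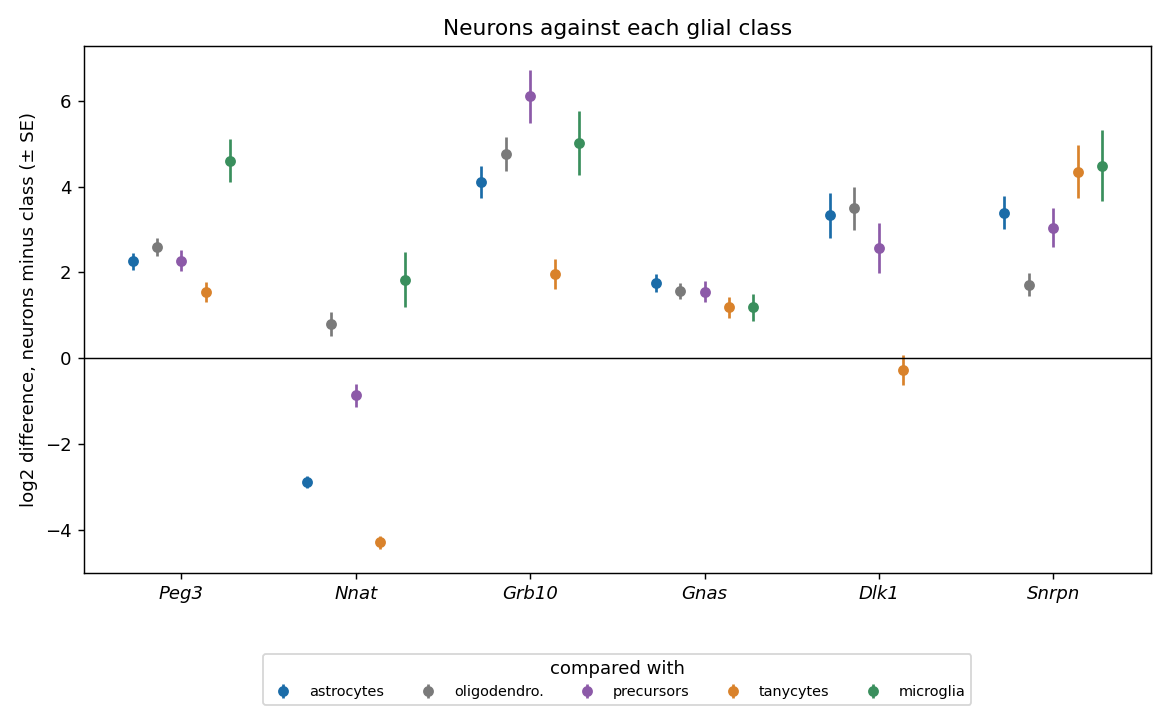
Log2 difference of neurons from each glial class (vertical axis, ± SE from the edgeR fit) for the 6 members that passed the filter on low counts (horizontal axis); colours mark the glial class, and Dlk1 against microglia is left out because microglia held 0 UMIs. Nnat is lower in neurons than in tanycytes (-4.30), astrocytes (-2.89) and precursors (-0.87), and the tanycyte point is the lowest for Peg3, Grb10, Nnat and Dlk1.

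Among the glial classes, 6 of 30 member and class pairs (20%) were called higher and 3 (10%) lower when each class was set against the average of the remaining glia. These shares are near the 17.6% and 7.90% of 31095 pairs over all genes. In tanycytes 4 of the 6 members tested were higher, where 15.3% of 6219 genes were: Nnat (4.02), Peg3 (1.39), Grb10 (3.04) and Dlk1 (5.06, which includes microglia at 0). The other 2 higher pairs were Nnat in astrocytes (2.26) and Snrpn in oligodendrocytes (2.11). Nnat was lower in microglia (-3.64) and oligodendrocytes (-2.36), and Peg3 was lower in microglia (-2.44).

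The tanycyte class was not uniform. At a finer clustering (resolution 2), 84 and 39 of its nuclei formed a cluster that met no class rule and was led by Hbb-bs, Dnah11 and Slc7a11, and 30 and 17 kept the tanycyte name. The tanycyte markers summed to 10127 and 7479 CPM in the unnamed nuclei and to 26983 and 24438 CPM in the others. The astrocyte markers summed to 5007 and 5090.3 CPM in the unnamed nuclei and to 2292 and 2890.1 CPM in the others. In the astrocyte class they summed to 28515 and 27141 CPM. Whether the unnamed nuclei include other cell types was not tested. Dlk1 was read almost entirely in the nuclei that kept the name, at 360.5 and 383 CPM from 14 and 9 UMIs, against 0 and 28.4 CPM from 0 and 1 UMI in the rest. Nnat was high in both, at 3886 and 2730 CPM in the unnamed nuclei and 1854 and 2848 CPM in the named ones.

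RNA released by broken cells can put neuronal transcripts into glial droplets. The 12 neuron markers summed to 5142 and 5138 CPM in neurons, and to between 102 and 727 CPM in the glial classes. Tanycytes had the lowest sum in both libraries, 348 and 102 CPM, with 3 and 7 of the 12 markers at 0. By marker, the median glial level was 0 to 12.2% of the neuron level. Single markers reached 116% (Gad1 in precursors). Gnas and Nnat lay above 12.2% of their neuron level in both libraries of all 5 glial classes, Peg3 in all but microglia, Ndn in astrocytes, oligodendrocytes and precursors, Plagl1 in astrocytes, oligodendrocytes and tanycytes, Snrpn in oligodendrocytes, and Grb10, Dlk1 and Asb4 in tanycytes. Magel2 was at 0 in 3 and Asb4 in 4 of the 5 glial classes. The neuron marker Snap25 also lay above 12.2% in both libraries of astrocytes, oligodendrocytes and precursors. In both libraries of microglia, Celf4 (28.4% and 25.1%), Elavl4 (30.2% and 18.3%) and Slc32a1 (69.6% and 46.8%) did so. Passing 12.2% therefore does not set a member's level in these classes apart from such RNA. The part of such RNA in the glial levels of the members was not tested.

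Neurons fell into 18 clusters, named here by their 3 leading genes after passing over predicted genes, clone names ending in Rik, opposite-strand transcripts, haemoglobin genes and pseudogenes. The 9 with at least 20 nuclei in both libraries were compared, each with the average of the other 8, and 7 of the 9 are described by name. All 10 members were tested, giving 90 pairs, of which 16 were higher and 13 lower, or 17.8% and 14.4%. Over all genes 5.62% of 73944 pairs were called higher and 2.97% lower. The median difference was 0.03 over the members' pairs and 0.02 over all pairs. An average of logs is undefined where a cluster holds 0 UMIs of a gene, so each cluster was also set against the summed counts of the other clusters, a comparison added after the values had been seen. It made 15 higher and 22 lower calls, against 4.39% and 4.80% of pairs over all genes, with medians of -0.07 and -0.01, and it kept 26 of the 29 calls. Between the libraries, neuron levels of the members differed by -0.44 to 0.41 on the log2 scale. The fits hold a term for the library, so this range gives the size of library shifts and not the error of the differences below.

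**Figure D3:**
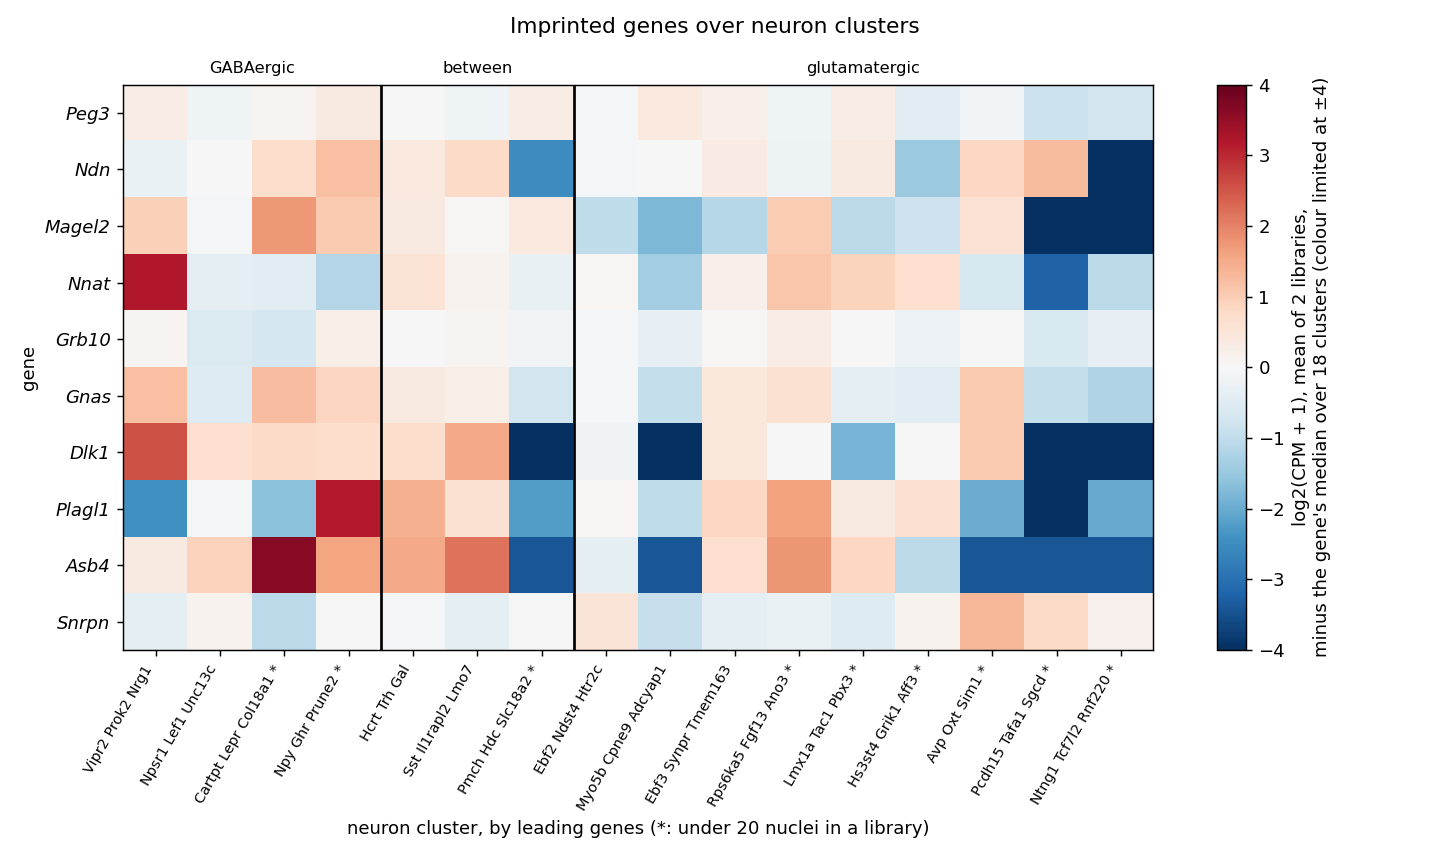
Mean over the 2 libraries of log2(CPM + 1) for each member (rows) in 16 of the 18 neuron clusters (columns), less the member's median over all 18; clusters are ordered by transmitter type, and an asterisk marks those with fewer than 20 nuclei in a library. Peg3 and Grb10 differ least between columns (highest mean CPM 2.15 and 2.02 times the lowest), while Nnat and Dlk1 are highest in the Vipr2 Prok2 Nrg1 cluster.

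The Vipr2 Prok2 Nrg1 cluster (110 and 69 nuclei, GABAergic), led by genes known from the circadian clock nucleus, held the highest levels of Nnat, Dlk1, Magel2 and Gnas among the 9. Nnat reached 1014 and 655 CPM there, while every other cluster of the 9 lay between 29.0 and 145 CPM. Its log2 difference was 3.29 ± 0.14 (edgeR adjusted p = 7.06e-30). Dlk1 reached 517 and 407 CPM, a difference of 3.03 ± 0.19. Magel2 reached 126 and 143 CPM (1.48 ± 0.29), and Gnas 773 and 1310.2 CPM (1.35 ± 0.12). For Nnat and Dlk1 the libraries of this cluster did not overlap with those of any other tested cluster. After thinning, 37.3% and 24.6% of its nuclei held an Nnat UMI.

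The 15 tanycyte markers, listed because Nnat and Dlk1 are also high in tanycytes, summed to 2249 and 2236 CPM in this cluster, the highest of the 18 neuron clusters, against 16114 and 14277 CPM in tanycytes. Of these markers 8 were at 0 in each library, and Col25a1 alone gave 1310.4 and 1235 CPM. The 15 astrocyte markers summed to 291 and 218 CPM, against 28515 and 27141 CPM in astrocytes. Blcap rose there as well, by 1.89 ± 0.29. Their part in the Nnat and Dlk1 levels was not tested.

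The Myo5b Cpne9 Adcyap1 cluster (213 and 90 nuclei, glutamatergic) was the opposite case, with 6 members lower and 1 higher. The shares over all genes given above are pooled over the clusters compared. Whether these counts are particular to the members was therefore not tested in this cluster. Dlk1 was nearly absent, with 1 UMI in each library, where 3 counts over both would be 3.88 CPM. The other 8 clusters together held 106 CPM, 41.2 times as much with a counting interval of 11.4 to 340.5. Asb4 had no UMI there, and the other 8 clusters were at least 3.98-fold higher. Nnat fell to 37.6 and 29.0 CPM (-1.78 ± 0.25), Magel2 to 22.5 and 16.5 CPM (-1.34 ± 0.35), Snrpn to 86.4 and 91.0 CPM (-0.90 ± 0.18) and Gnas to 233 and 219 CPM (-0.89 ± 0.14). Peg3 was the one member that was higher there, at 1003 and 641 CPM (0.56 ± 0.10). The Nnat and Snrpn calls in this cluster were lost after thinning. All 7 calls held against the summed counts of the other clusters.

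By the mean of the libraries, Asb4 and Plagl1 were highest, among the 9, in clusters led by neuropeptide genes. These, the Sst Il1rapl2 Lmo7 and Hcrt Trh Gal clusters, were neither glutamatergic nor GABAergic by the rule used here. Whether they mix neuron types was not tested. In the Hcrt Trh Gal cluster (717 and 373 nuclei) Asb4 stood at 32.9 and 27.0 CPM (1.60 ± 0.26 against summed counts) and Plagl1 at 69.2 and 32.2 CPM (1.60 ± 0.25). In replicate 2 alone, Plagl1 was higher in the Ebf3 Synpr Tmem163 (40.4 CPM) and Npsr1 Lef1 Unc13c (34.4 CPM) clusters. Dlk1 (0.89, or 0.54 against summed counts), Magel2 (0.74) and Gnas (0.28) were also higher there, of which the Magel2 and Gnas calls were lost with DESeq2. The Dlk1 mean of 129 CPM lay below those of the Vipr2 (462) and Sst (229) clusters. The Gnas difference was small, at 0.36 without replicate 1, 0.26 without replicate 2 and 0.36 against summed counts. The Sst Il1rapl2 Lmo7 cluster was higher for Asb4, at 43.7 and 52.1 CPM (1.81 ± 0.57 against summed counts), and for Dlk1, at 289.6 and 169 CPM (2.01 ± 0.20). Averaged with the Myo5b cluster, which is at 0 for Asb4, the Asb4 differences of these clusters were 1.88 and 2.61. The Plagl1 call in the Sst cluster (1.42) was lost with DESeq2 and against summed counts (0.78), and rested on 20 UMIs in replicate 1 and 1 in replicate 2: without replicate 1 it turned to -0.06.

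Snrpn had its own distribution. It was higher in the Ebf2 Ndst4 Htr2c cluster, at 280.5 and 210.1 CPM (0.69 ± 0.10), a call that was lost after thinning. Grb10 had 0 calls over the 9 clusters with edgeR and 0 with DESeq2, and 2 clusters at an unadjusted p under 0.05. Against summed counts it had 1 call, higher by 0.31 in a cluster not described by name. Its cluster means ran from 195 ± 65.4 to 330.3 ± 4.85 CPM (SD, n = 2), and those of Peg3 from 534 ± 18.0 to 822 ± 256, ratios of 1.69 and 1.54. The same ratio was 25.1 for Nnat and 6.87 for Magel2.

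Of the remaining calls in the clusters described, Gnas was higher in the Ebf3 Synpr Tmem163 cluster (0.47) and lower in the Npsr1 Lef1 Unc13c cluster (-0.59). Magel2 was lower in the Ebf2 Ndst4 Htr2c cluster (-0.75) and Nnat in the Npsr1 Lef1 Unc13c cluster (-0.99), and both calls were lost with DESeq2. The Gnas calls in the Ebf3 and Npsr1 clusters were lost after thinning and against summed counts. Without a term for the library in the fit, the Peg3 and Magel2 calls in the Myo5b Cpne9 Adcyap1 cluster and the Dlk1 call in the Hcrt Trh Gal cluster were lost as well. Without replicate 1, which leaves no test, 5 calls kept their direction but shrank by over 1.5 times, among them Peg3 in the Myo5b cluster to 0.27, Dlk1 in the Hcrt cluster to 0.53 and Nnat in the Npsr1 cluster to -0.51.

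The clusters led by Cartpt and Lepr, by Npy, and by Avp and Oxt were small, so they entered only a fit with at least 10 nuclei per library, chosen after their sizes had been seen. Each of its 17 clusters was set against the summed counts of the others, since several hold 0 UMIs of a member. It called 23 of 170 member pairs higher and 31 lower, against 4.36% and 5.28% over all genes. In the Cartpt Lepr Col18a1 cluster (72 and 14 nuclei), led by genes of leptin-responsive neurons, Asb4 stood at 112 and 159.5 CPM (2.94 ± 0.60) and Magel2 at 185 and 287 CPM (1.78 ± 0.30). Each was the highest level of that gene over the 18 clusters. Gnas was also higher there (1.0 ± 0.20), while Nnat (-1.39), Snrpn (-1.17) and Grb10 (-0.88 ± 0.29) were lower, and the Grb10 mean of 177 CPM was the lowest of the 18. The Npy Ghr Prune2 cluster (36 and 14 nuclei) had the highest Plagl1 level, 189 and 139.9 CPM (2.63 ± 0.49). Plagl1 in replicate 2 of that cluster rested on 5 UMIs. In the Avp Oxt Sim1 cluster (29 and 19 nuclei), led by genes of neurons that make vasopressin and oxytocin, Snrpn stood at 426 and 432 CPM (1.15 ± 0.26) and Gnas at 791 and 998 CPM (0.99 ± 0.24). Magel2, whose loss in mice is known to affect oxytocin neurons, stood at 71.0 and 149 CPM there (0.80 ± 0.43) with no call.

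GABAergic and glutamatergic clusters, told apart by Slc32a1 and Slc17a6, differed for 5 members. All 5 were lower in the 4 glutamatergic clusters than in the 3 GABAergic ones, and none was higher, against 4.56% lower and 6.43% higher of 8216 genes. The differences were -2.69 ± 0.20 for Dlk1, -1.94 ± 0.67 for Asb4, -0.94 ± 0.22 for Magel2 (-0.61 without replicate 1), -0.93 ± 0.17 for Nnat and -0.54 ± 0.10 for Gnas. The median was -0.45 over the 10 members and 0 over all genes. The Asb4 call (edgeR adjusted p = 0.0469) was lost without the filter on low counts (-1.90), without the library term (-1.93), at resolution 0.5 (-2.95) and with doublet calls kept (-1.16). The Nnat call was lost at resolution 2 (-0.15), with doublet calls kept (-0.33) and after thinning (-0.23). It was also lost in averages with clusters of at least 10 nuclei per library added (-0.03). The Magel2 call was lost at resolution 2 (-0.53). With counts summed over the clusters of each type, 3 members were lower, Dlk1 (-1.50), Nnat (-1.04) and Gnas (-0.49), against 2.81% of genes, while Asb4 (-0.74) and Magel2 (-0.51) lost their calls. None was higher there, also at an unadjusted p under 0.05, against 4.61% of genes. The Vipr2 Prok2 Nrg1 cluster is 1 of the 3 GABAergic clusters, and the Myo5b Cpne9 Adcyap1 cluster, with 0 Asb4 and 2 Dlk1 UMIs, is 1 of the 4 glutamatergic ones. With the smaller clusters added to these sums, the same 5 members were lower, Dlk1 (-1.46), Asb4 (-1.45), Magel2 (-0.81), Nnat (-0.78) and Gnas (-0.57), against 4.26% of genes, and none was higher, against 6.73%. At an unadjusted p under 0.05, edgeR had 1 member higher in glutamatergic clusters, Peg3 (0.22), and DESeq2 called 0 higher. Peg3 was called higher in glutamatergic clusters in 4 other settings, by 0.21 to 0.33, and had no call in the rest, where it ran from -0.08 (averages with the smaller clusters added) to 0.35 (thinned).

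Most neurons carried several members: 53.5% and 64.8% held 3 or more as deposited, and 4.57% and 4.49% after thinning. On average 2.76 and 3.07 of the 10 were detected per neuron as deposited, and 0.879 and 0.853 after thinning. Tanycytes at the same thinned depth had 1.07 and 1.23, and astrocytes 0.457 and 0.53. Microglia had the fewest, at 0.182 and 0.239. Nnat alone was held by a mean of 64.1% of thinned tanycytes and 32.5% of astrocytes, against 5.85% of neurons. It therefore makes up a large part of the thinned tanycyte and astrocyte values.

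Other imprinted genes that passed the filter on low counts were also called higher in neurons more often than all genes tested. Of 66 further imprinted genes listed from general knowledge, 64 had a row in the files and 33 passed the filter. Of these, 23 (69.7%) were higher in neurons than in the average of glia and 3 (9.09%) were lower. Over all 6219 genes tested, 34.8% were higher and 14.1% lower. Their median difference was 1.18, against 0.26 over all genes. The filter can be met through neurons alone, so these counts and this median hold only for the genes that passed. The 6 with the smallest p-values were all higher in neurons: Meg3 (4.18 ± 0.11) and its neighbours Rian (6.05) and Mirg (4.68), long non-coding RNAs of the Dlk1 locus, Ube3a (3.49) and Snhg14 (3.85) beside Snrpn, and Usp29 (6.03) beside Peg3. Rian and Usp29 had no UMI in microglia, so their differences depend on the fit. Gab1 (-4.34), Cd81 (-1.89) and Commd1 (-0.84) were the 3 that were lower. Like Dlk1, Meg3 was high in tanycytes, at 1888 ± 5.08 CPM against 5703 ± 923 in neurons (SD, n = 2), and 175 ± 9.84 in astrocytes.

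**Figure D4:**
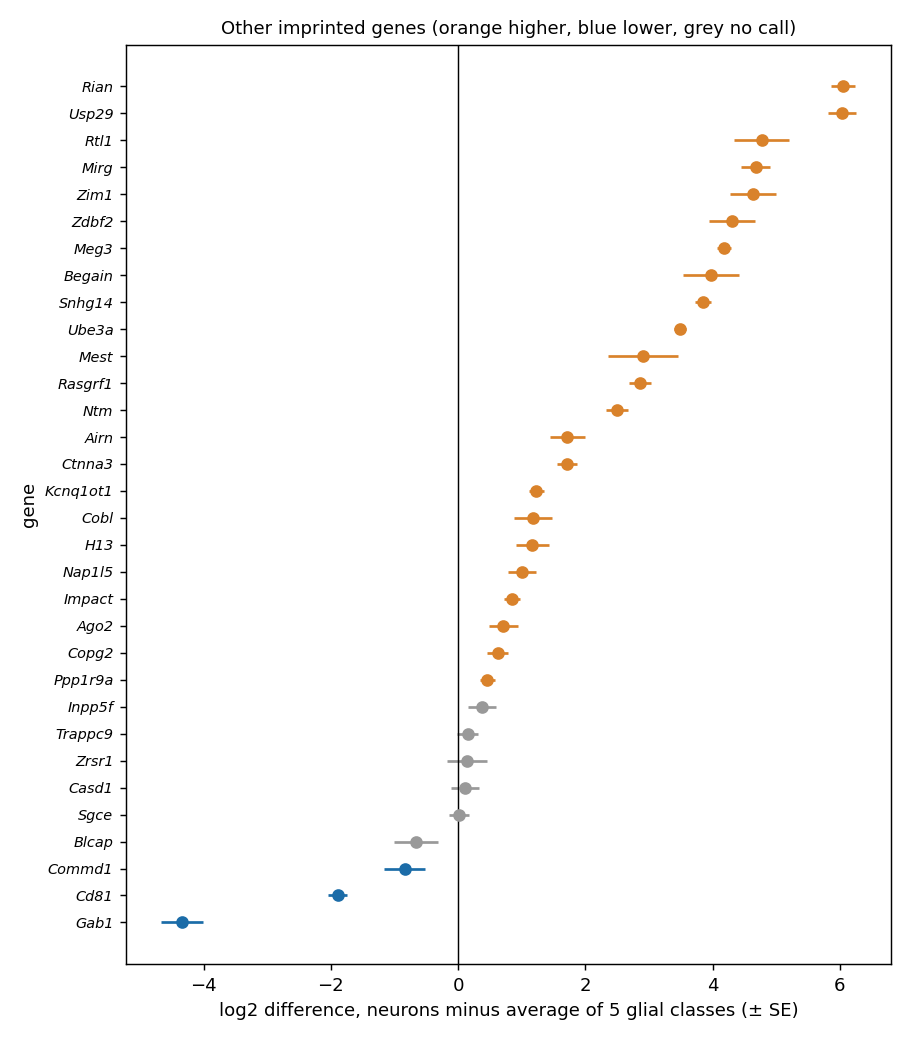
Log2 difference between neurons and the average of the 5 glial classes (horizontal axis, ± SE from the edgeR fit) for the other imprinted genes that passed the filter on low counts (vertical axis); orange is higher, blue lower and grey not called, and Pon3, whose standard error was 15.84, is left out. Rian (6.05) and Usp29 (6.03) lie farthest to the right and Gab1 (-4.34) farthest to the left.

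Across the 5 glial classes and 9 neuron clusters (14 in all), the genes most like each member were taken from replicate 1 by Pearson's r of log2(CPM + 1), among 8388 genes, and r in replicate 2 was read beside it. These values describe units that share libraries, depth and the split between neurons and glia. For Peg3 they were Grb10, Gprasp1 and Cdr1 (0.97 to 0.98, and 0.62 to 0.76 in replicate 2), and Grb10 had Cdr1, Gprasp1 and Peg3. Nnat had Itgb3bp, Xpo1 and Sdf2, of which Sdf2 kept the highest value in replicate 2 (0.92, then 0.81). Magel2 had Eif4e3, Adcy6 and Gm32442 (0.96 to 0.97, and 0.39 to 0.7 in replicate 2). Snrpn had Gm40375, Gm32442 and Ndst3 (0.96 to 0.97, and 0.39 to 0.69 in replicate 2). Gnas had Tmx4, Gm20721, which overlaps it on the opposite strand, and Rtn3 (0.91, and 0.27 to 0.78 in replicate 2). Dlk1 had Samd5, Spin1 and Gm45321 (0.9, and 0.45 to 0.78 in replicate 2). Asb4 had Prdm15, Spin1 and Trrap (0.87 to 0.9, and 0.17 to 0.79 in replicate 2). For Ndn the genes were Dclk1, Casc4 and Repin1, the last falling from 0.97 to -0.11, and for Plagl1 they were Tmco1, Ints8 and Rbm12b2, falling from 0.88 to 0.90 to between 0.12 and 0.44. Between members, Dlk1 with Asb4 (0.85) and Peg3 with Magel2 (0.84) had the same value in both libraries.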

How the data were processed

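The authors deposited raw counts of UMIs per gene and barcode for nuclear RNA, in whole numbers per the file headers. Per the submitters' processing notes, Cell Ranger 5.0.1 was used, and the build named there, GRCh38, is human although the gene identifiers are those of mouse. The sources used here give neither the mouse build nor the use of strand, and coordinates and sequences come from GRCm38 tables (RefSeq and GENCODE) matched by symbol.

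The members and all gene lists were chosen with earlier results of these data known. Only the 2 Control samples were used, numbered in accession order, since the Transplanted matrices held the same nuclei. Library totals were 8779880 and 4924563 UMIs. A minimum of 300 genes and a maximum of 5% mitochondrial counts per nucleus removed none. Scrublet marked 6 (0.150%) and 42 (1.95%) nuclei as doublets, which were left out; the first share is so low that doublets are in effect still present in replicate 1. With scanpy 1.11.5, counts were scaled to 10000 per nucleus and logged, and 3000 variable genes, 40 principal components, 20 neighbours and leiden (igraph 0.11.9) at resolution 1 gave 23 clusters. A first run scaled the genes before the principal components; its coarser clusters were seen and the scaling dropped before any member value was computed, and it is kept as an added alternative. A glial class needed 3 of its markers among the 10 leading genes of a cluster, and a neuron cluster 6 of 12 neuron markers over 2-fold above the glia. Neuron clusters were called glutamatergic or GABAergic where Slc17a6 or Slc32a1 exceeded the other by a ratio of 2.

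Counts were summed per class or cluster and library and tested with edgeR 4.0.16 (quasi-likelihood, TMM, filterByExpr, a term for the library; R 4.3.3), with Benjamini-Hochberg adjustment over all genes and, where a comparison has several classes or clusters, over all pairs. Differences are log2, with standard errors from the fit, and the script was tested on simulated data. Intervals (95%, exact) and the level of 3 counts cover counting error only. Named genes were all 10 members, the 6 other imprinted genes with the smallest p in neurons against glia, and 3 like genes per member among genes with at least 200 UMIs. Gab1, Cd81, Commd1, Pon3, Blcap and Col25a1 were named after their values were seen. Alternatives were DESeq2 1.42.0, no filter, no library term, other clusterings, summed counts of the other clusters (added), at least 1000 UMIs per nucleus, doublet calls kept, the Transplanted matrices, thinning, and leaving out each library. The sequence of proteins was not used here, and values of 2 neuron clusters are counted but not reported by name here.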

Additional observations from a re-analysis of the deposited data

How the results depend on the processing

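Among the neuron and cluster calls checked, 1 changed its direction: Plagl1 in the Sst Il1rapl2 Lmo7 cluster, at -0.06 without replicate 1, where it has 1 UMI left, and 1.77 without replicate 2. Without the filter on low counts, 9 members were higher in neurons than in the average of glia; each of the 4 added ones has a glial class at 0, and that setting moved the median over all genes by 0.31. The count of members lower in neurons went to 0 at resolution 2 and after thinning. The other imprinted genes called higher numbered 36 without the filter, 14 with at least 1000 UMIs and 15 after thinning. These settings also change which genes are tested, and shares over all genes are not given beside these counts. Without the filter, the share of glial pairs called lower was 6%, and of pairs lower in neurons than a glial class 4%. The share called lower was 6.47% with at least 10 nuclei, where clusters at 0 leave averages undefined, 6.67% at resolution 2, 24.4% against summed counts, 8.46% with at least 1000 UMIs and 7.41% after thinning. Members lower in glutamatergic clusters numbered 3 at resolution 2, 3 with doublet calls kept, 3 with summed counts and 2 after thinning, and 1 member was higher with all genes in the clustering, at resolution 2, with at least 1000 UMIs and in the Transplanted matrices. Of 193 refits of cluster calls that kept both libraries, 44 lost the call; the cause was not tested.

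Leaving out a library gives values with no test. The signs were kept for 6 of 6 neuron calls, 9 of 9 glial calls, 28 to 29 of 29 cluster calls, 5 of 5 transmitter calls and 29 of 29 calls against single classes. Grb10 went to 4.91 and 5.80, Gnas to 1.67 and Snrpn to 4.19. Grb10 had no UMI in precursors of replicate 2 and microglia of replicate 1, and Snrpn none in microglia of replicate 2. The Grb10 and Snrpn values therefore depend on the fit. The classes and clusters compared come from the same libraries, so the fit is paired by library; without that block the share of cluster pairs called was 11.1% higher and 7.78% lower. Control and Transplanted were not compared, since they hold the same nuclei. No neuron cluster was led by markers of another class, so that alternative could not be run. At 55 and 46 nuclei, microglia limit what a count of 0 can show, and 10 of the 50 member and class pairs had no UMI.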
